A study of Mus musculus with 15 samples.

Results

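The collagens, laminins and other extracellular matrix proteins described here are 41 probe sets of 36 genes, out of 2416 probe sets on 4 lists deposited by the authors and 22690 on the array. They were chosen by the start of the gene symbol (Col and a digit, Lama, Lamb, Nid, Fbln, Sparc, Plod, P3h, P4h, Matn, Itgb and others) or by the symbol Lum, among listed probe sets, since the lists give the gene names used here. By role they comprise 10 probe sets of 7 fibrillar collagen genes, 6 of other collagens, 6 of basement membrane proteins, 6 of 5 collagen-modifying enzymes, 8 of 7 elastic fibre proteins, glycoproteins and a proteoglycan, and 1 integrin. Another 4 were caught by their name alone and are no matrix proteins (Eif6, listed as Itgb4bp, and Itgb1bp1, Itgb1bp2 and Itgb3bp). The lists had been drawn up on 2 comparisons, of buds labelled PTHrP-/- and of WT ventral skin, each with WT buds: 10 members came from the bud comparison, 26 from the skin comparison and 5 from both. Member values in those 2 comparisons are therefore a description, and the independent reading comes from the other arrays.

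RNA was measured on 15 Affymetrix MOE430A arrays, 3 for each of 5 groups, with RNA of CD-1 mice at embryonic day 15. The groups were ventral skin of K14-PTHrP transgenic embryos, ventral skin labelled K14WT (WT skin that served as the control of the transgenic skin), ventral skin of WT embryos, mammary buds labelled PTHrP-/- and mammary buds of WT embryos. The keratin 14 promoter of the transgene is active in basal keratinocytes. Tissue of like genotype was pooled, with about 120 buds for about 20 ug of RNA, and nothing in the labels tells if each array had its own pool, so the spread behind the p-values may be technical. Each sample held epithelium and mesenchyme together: 4 of 4 named epidermal markers and 5 of 5 named dermal fibroblast markers (Lum, itself a member, among them) lay above the array median on all 15 arrays. In such bulk tissue fewer cells of a type and less RNA per cell cannot be told apart.

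The gene that the labels target did not bear them out. Pthlh, which encodes PTHrP, had log2 levels of 6.81, 6.28 and 6.11 in buds labelled PTHrP-/-, against 4.87, 5.85 and 5.57 in WT buds. Every array labelled PTHrP-/- was above every WT bud array, and the difference of 0.97 ± 0.24 (SE) had an adjusted p of 0.215 in the limma fit. In skin labelled K14-PTHrP the 3 arrays read 3.60, 3.64 and 3.39, against 4.38, 3.86 and 4.23 in K14WT skin, with all 3 transgenic arrays lower. That difference of -0.61 ± 0.24 (SE) was not called (limma adjusted p = 0.366). All 3 transgenic readings and the second K14WT reading were under their array medians, so this pair was read near the floor. Whether this probe set reads the deleted part of the gene or the transgene's RNA is unknown here, so it may check neither label, and every direction below that involves the 2 groups rests on their labels.

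Depth on arrays is signal over background, and 39 of the 41 members passed the filter on low signal. Lamb1, a laminin beta chain, and Col11a1, a minor fibrillar collagen chain, did not and were not tested: Lamb1 lay between 2.44 and 3.72 and Col11a1 between 2.54 and 4.12 over the 15 arrays, against array medians of 3.86 to 4.04. The median within-group SD over all probe sets was widest in skin labelled K14-PTHrP, at 0.203, and narrowest in buds labelled PTHrP-/-, at 0.115. The third K14-PTHrP array and the third WT skin array stood apart from their groups for many collagens, and the values that rest on them most are also given without them. In the table, 134 probe sets had readings on all 3 WT skin arrays more than 0.5 log2 beyond all 12 other arrays. They were set aside as a possible fault of the table. The same gap held for 24 probe sets in K14-PTHrP skin, 7 in buds labelled PTHrP-/-, 1 in K14WT skin and 0 in WT buds. Only WT skin was filtered this way. No member was among the 134.

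Type I, III and V collagen chains wind into triple helices that assemble into the fibrils of dermis, while type IV collagen, laminins and nidogen form the sheet on which epithelium rests. Before a helix is secreted its chains are hydroxylated on proline and lysine by prolyl and lysyl hydroxylases, which the fibril needs for its stability and cross-links. In the embryo, mammary buds sink from the epidermis into a dense mesenchyme, and PTHrP from the bud epithelium is known to act on that mesenchyme.

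**Figure D1:**
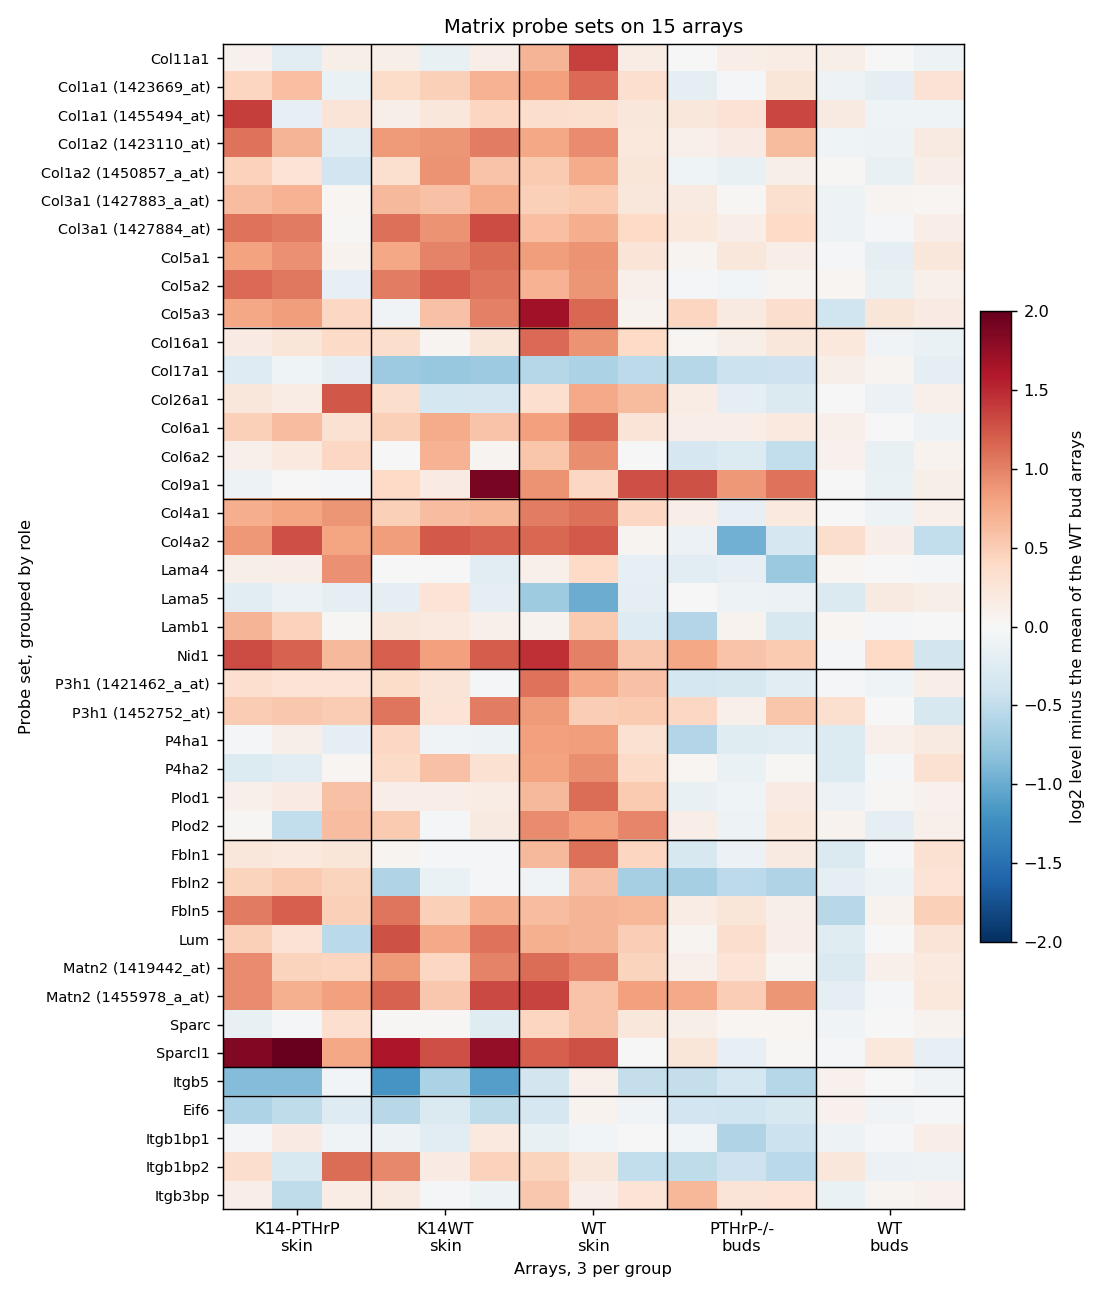
Log2 level of the 41 matrix probe sets (rows, grouped by role) on the 15 arrays (columns, 3 per group), minus the mean of the 3 WT bud arrays. Red is above the WT buds and blue below, and the scale stops at -2.0 and 2.0; fibrillar collagens are red in K14WT and WT skin, and Col17a1 is blue in the 4 groups other than WT buds, palest in K14-PTHrP skin.

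Between K14WT skin and WT buds 29 of 39 tested members had positive differences, with a median of 0.50 on the log2 scale, beside -0.04 over all 11565 probe sets tested. The limma fit called 17 of the 39 at an adjusted p under 0.05, 14 higher and 3 lower, where 11.4% of all probe sets were called, 2.14% as higher and 9.3% as lower. The arrays did not overlap for 19 members that were higher and 3 that were lower, beside 1452 and 2729 of all 11565 probe sets. Most members were listed for a low level in these same WT buds: 14 of the 28 members on the list of higher in WT skin were called, all higher, beside 80 of all 316 tested probe sets on that list, 74 higher and 6 lower. The 17 calls depended on the arrays used, and leaving out the third K14WT array left 1 and leaving out the first, the second or the third WT bud array left 3, 4 or 8. With all arrays, 14 members were called with the replicate block, 12 with median centring and 10 with no filter on low values.

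A comparison that shares no array with the skin list was added. Set over buds labelled PTHrP-/-, a pair chosen after the data were seen, K14WT skin had positive differences for 25 of the 28 members on the list of higher in WT skin, with a median of 0.47, beside 174 of 316 and a median of 0.06 for the whole list. The fit called 2 of the 39 members there, where 1.6% of all probe sets were called: Col4a2 and Sparcl1. Arrays without overlap were found for 20 members that were higher and 4 that were lower, beside 1204 and 1936 of all 11565 probe sets. In this comparison tissue and the PTHrP label cannot be told apart, and leaving out an array left 1 call (first K14WT array) or 0 (each of the other 5).

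Between skin labelled K14-PTHrP and K14WT skin, which share no array with either list, 1 member of 39 was called, Col17a1, where 0.726% of all probe sets were called. The members' median difference was -0.08, with 16 positive, beside -0.01 over all probe sets. The arrays did not overlap for 5 members that were higher and 3 that were lower, where 4.73% and 6.64% of all probe sets were so. Between K14WT skin and WT skin, 2 groups both of WT embryos, 3 members were called, all lower in K14WT skin (P3h1, Plod1 and Fbln1), where 5.22% of all probe sets were called. Here the arrays did not overlap for 5 members that were higher and 8 that were lower, beside 1058 and 2443 of all 11565 probe sets. Most members had been listed for a high level on these same WT skin arrays: 3 of the 28 members on the list of higher in WT skin were called (10.7%), beside 44 of all 316 tested probe sets on that list (13.9%), every one of them lower. Leaving out an array left 6 calls (the first K14WT array), 5 (the third WT skin array) or 0 (each of the other 4). In the 2 comparisons behind the lists, 0 members were called in buds labelled PTHrP-/- over WT buds, where 0.0259% of all probe sets were called. There 10 of 39 members had an unadjusted p under 0.05, beside 1626 of all 11565 probe sets and 1191 of the 2185 on any list. The bud arrays did not overlap for 7 members that were higher and 8 that were lower. Over all 11565 probe sets 1619 were so as higher and 2088 as lower, and over the 2185 on any list 462 and 1211. In WT skin over WT buds 2 members were called, where 0.156% of all probe sets were called. That share leaves out the set-aside probe sets, and the counts with them are given below. In WT skin over WT buds the arrays did not overlap for 26 members that were higher and 1 that was lower. Over all 11565 probe sets 1037 were so as higher and 1033 as lower, and over the 2185 on any list 363 and 442. Without the third WT skin array 10 members were called in that last comparison, and 0 without the first or second array of either group.

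Of the fibrillar collagens, 5 of 9 tested probe sets were called higher in K14WT skin than in WT buds. Over all probe sets 2.14% were called higher there, and 74 of the 316 tested on the list of higher in WT skin. All 9 tested probe sets, of 6 genes, had positive differences in K14WT skin over WT buds, with a median of 0.66. The same 9 were positive in WT skin over WT buds, with a median of 0.57 and 0 called (lowest adjusted p 0.248). Apart from the less bright Col1a1 probe set, they had been listed as higher in WT skin, so that sign was set by the listing. Col3a1, which encodes the type III chain abundant in embryonic skin, read 14.05, 13.98 and 14.14 in K14WT skin, 13.87, 13.93 and 13.63 in WT skin, and 13.30, 13.45 and 13.44 in WT buds. Both skin groups lay wholly above the WT buds, and the K14WT difference of 0.66 ± 0.15 (SE) was called (limma adjusted p = 0.0195). A second Col3a1 probe set had a larger difference of 1.10 ± 0.23 (SE, adjusted p = 0.0121).

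Col5a1 and Col5a2, the type V chains that regulate fibril diameter, followed the same order. Col5a1 read 10.10, 10.32 and 10.45 in K14WT skin, against 9.28, 9.13 and 9.55 in WT buds, a difference of 0.97 ± 0.22 (SE, adjusted p = 0.0171). Col5a2 read 11.31, 11.48 and 11.36 in K14WT skin, against 10.32, 10.14 and 10.39 in WT buds, a difference of 1.10 ± 0.28 (SE, adjusted p = 0.0268). In neither gene did a K14WT array overlap a WT bud array. Col5a3, the third type V chain, spread widely, from 5.23 to 6.31 in K14WT skin and from 4.91 to 5.55 in WT buds, and was not called.

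The type I chains, the main collagen of dermis, showed differences that varied between probe sets. For Col1a2, the less bright probe set read 11.71, 11.74 and 11.88 in K14WT skin, against 10.78, 10.75 and 11.04 in WT buds, and was called (0.92 ± 0.28 SE, adjusted p = 0.0495). That call was lost with the replicate block (0.0652), median centring (0.0628), no filter on low values (0.0956), and each of the 6 arrays left out in turn (0.068 to 0.142). The brighter Col1a2 probe set differed by 0.60 ± 0.21 (adjusted p = 0.0815). For Col1a1 the brighter probe set read 11.37, 11.47 and 11.69 in K14WT skin, against 10.90, 10.81 and 11.28 in WT buds, and was not called (0.51 ± 0.22 SE, adjusted p = 0.141). The other Col1a1 probe set, which put the gene on the list of higher in buds labelled PTHrP-/-, had 1 array apart from the others: it read 10.49, 10.55 and 11.60 there, against 10.44, 10.18 and 10.17 in WT buds, while the brighter one differed by 0.00 ± 0.22 (SE). Skin labelled K14-PTHrP held another such reading, 11.64 beside 10.10 and 10.52.

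In skin labelled K14-PTHrP over K14WT skin the fibrillar collagens had a median difference of -0.37, with 7 of 9 probe sets negative and 0 called. One array carried it. Col5a2 read 11.42, 11.35 and 10.12 in K14-PTHrP skin, against 11.31, 11.48 and 11.36 in K14WT skin. Its first and second transgenic arrays lay within the K14WT range and the third below every K14WT array. Col1a2 read 12.89, 12.70 and 12.04 in K14-PTHrP skin, against 12.74, 13.32 and 12.99 in K14WT skin, with the third transgenic array again lowest. Col5a1 read 10.12, 10.24 and 9.39 against 10.10, 10.32 and 10.45. Without the third K14-PTHrP array the group's median was -0.00. On the control probe sets, the excess of the 3' over the 5' end of actin was 1.08, 1.30 and 1.79 log2 units in K14-PTHrP skin, against 1.17, 1.12 and 1.34 in K14WT skin, highest on the third transgenic array. Its part in the result was not tested.

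**Figure D2:**
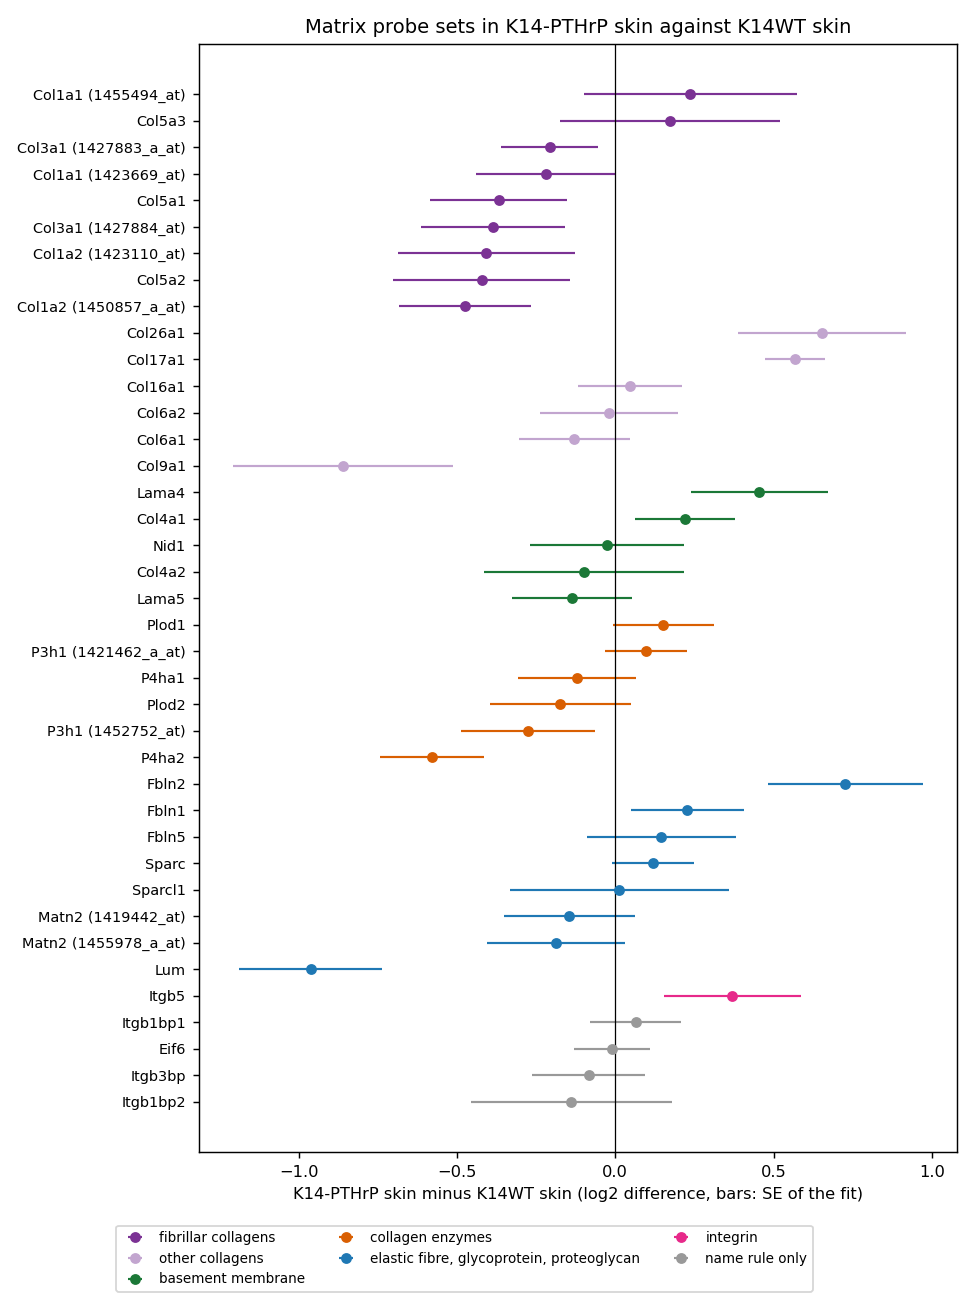
Difference in log2 level between skin labelled K14-PTHrP and K14WT skin (x axis) for the 39 tested matrix probe sets (y axis, coloured by role), with bars of 1 SE of the limma fit over 3 arrays per group. Col17a1, at 0.57, is the 1 called member; 7 of 9 fibrillar collagen probe sets and Lum lie left of 0.

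Col17a1, which is on the lists of both comparisons, encodes a transmembrane collagen of the hemidesmosome, which anchors basal keratinocytes to the basement membrane. Its levels were 7.930, 8.105 and 8.003 in skin labelled K14-PTHrP, 7.46, 7.42 and 7.45 in K14WT skin, and 7.62, 7.55 and 7.66 in WT skin. In buds it read 7.62, 7.76 and 7.77 in those labelled PTHrP-/-, against 8.30, 8.25 and 8.01 in WT buds. The transgenic skin lay above both WT skin groups without overlap, and the buds labelled PTHrP-/- lay below the WT buds without overlap.

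Col17a1 rose by 0.57 ± 0.09 (SE) in skin labelled K14-PTHrP over K14WT skin, a 1.48-fold difference (limma adjusted p = 0.0113). The call held with each of the 6 arrays left out in turn but not when limma saw only these 2 groups (adjusted p = 0.3035) or after quantile normalization (0.0537). It fell by 0.74 ± 0.09 in K14WT skin over WT buds (adjusted p = 0.00202). The differences behind the lists were -0.58 ± 0.09 in WT skin over WT buds (adjusted p = 0.0249) and -0.47 ± 0.09 in buds labelled PTHrP-/- over WT buds (adjusted p = 0.188). Basal keratins of epidermis were read on the same arrays: Krt14 averaged 11.23 ± 0.29 in K14-PTHrP skin, 10.78 ± 0.25 in K14WT skin, 11.22 ± 0.16 in WT skin, 11.14 ± 0.05 in buds labelled PTHrP-/- and 11.51 ± 0.16 in WT buds (SD, n = 3 each). Krt14 differed by 0.45 in the transgenic comparison (adjusted p = 0.299) and Krt15, another basal keratin, by 0.03. In K14WT skin over WT buds both were called lower, Krt14 at -0.74 (adjusted p = 0.0147) and Krt15 at -0.74 (adjusted p = 0.00903). Of the other named epidermal markers, Epcam was called lower there (-1.09, adjusted p = 0.00605) and Cdh1 was not called (0.05). The part of these markers in the Col17a1 result was not tested.

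The RefSeq promoter window of Col17a1, shown because it is the member called in the transgenic comparison, lies at chr19:47691993-47692292 on the minus strand of GRCm38.p6 and runs from 250 bases before to 50 after the annotated start, 5′ to 3′. Capitals mark TATAAA, which occurs at 2 places, and ATTGG, the other strand of CCAAT.
Col17a1: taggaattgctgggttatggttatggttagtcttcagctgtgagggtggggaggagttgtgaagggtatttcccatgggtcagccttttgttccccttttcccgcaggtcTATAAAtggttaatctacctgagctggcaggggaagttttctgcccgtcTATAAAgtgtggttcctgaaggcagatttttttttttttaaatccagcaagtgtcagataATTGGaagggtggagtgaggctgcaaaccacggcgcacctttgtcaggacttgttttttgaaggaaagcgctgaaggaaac

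Of 5 tested basement membrane members, both type IV collagens and nidogen rose in K14WT skin over WT buds, and the 2 laminin chains were not called. Col4a1 and Col4a2, the chains of the common type IV trimer, are neighbours transcribed away from each other. Col4a1 read 9.85, 9.99 and 10.04 in K14WT skin, 10.40, 10.47 and 9.79 in WT skin, 9.51, 9.21 and 9.57 in buds labelled PTHrP-/-, and 9.38, 9.27 and 9.48 in WT buds. Both skin groups lay above both bud groups without overlap. Col4a2 read 7.58, 7.98 and 7.93 in K14WT skin, 7.89, 7.97 and 6.80 in WT skin, 6.63, 5.78 and 6.40 in buds labelled PTHrP-/-, and 7.10, 6.87 and 6.26 in WT buds. Here the third WT skin array lay within the bud range.

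Both genes were called higher in K14WT skin over WT buds, Col4a1 by 0.58 ± 0.16 (SE, limma adjusted p = 0.034) and Col4a2 by 1.08 ± 0.32 (adjusted p = 0.0437). Both calls were lost with median centring (0.0521 and 0.0507) and with no filter on low values (0.0609 and 0.0888), and that of Col4a1 with the replicate block (0.0518). Leaving out any array other than the first K14WT array also ended them. Markers of endothelium, whose basement membrane holds type IV collagen, moved in both directions in the same comparison. Esam (0.68, adjusted p = 0.0189) and Cdh5 (0.88, adjusted p = 0.0465) were called higher and Ramp2 lower (-2.90, adjusted p = 0.00202). Cldn5 (0.20) and Egfl7 (0.14) were not called. The 5 named of 8 endothelial markers summed to 700 to 960 signal units in K14WT skin, 1388 to 1740 in buds labelled PTHrP-/- and 1698 to 1856 in WT buds. Ramp2, by far the brightest of the 5 in both bud groups, carried the drop in this sum. Its mean was 10.33 in WT buds and 7.43 in K14WT skin. The part of these markers in the type IV collagen result was not tested. Col4a2 was also called in K14WT skin over buds labelled PTHrP-/- (1.55 ± 0.32 SE, adjusted p = 0.031), where Col4a1 differed by 0.53 ± 0.16 (adjusted p = 0.109). In skin labelled K14-PTHrP, Col4a1 read 10.11, 10.17 and 10.26, each above every K14WT array, and was not called (0.22 ± 0.16 SE). Col4a2 differed there by -0.10 ± 0.32.

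Their RefSeq promoter windows are shown because both genes were called: the windows lie on opposite strands of chromosome 8 and share 78 bases. In GRCm38.p6 the Col4a1 window is chr8:11312777-11313076 on the minus strand and the Col4a2 window chr8:11312555-11312854 on the plus strand, each 5′ to 3′ with CCAAT or ATTGG and GGGCGG or CCGCCC in capitals.
Col4a1: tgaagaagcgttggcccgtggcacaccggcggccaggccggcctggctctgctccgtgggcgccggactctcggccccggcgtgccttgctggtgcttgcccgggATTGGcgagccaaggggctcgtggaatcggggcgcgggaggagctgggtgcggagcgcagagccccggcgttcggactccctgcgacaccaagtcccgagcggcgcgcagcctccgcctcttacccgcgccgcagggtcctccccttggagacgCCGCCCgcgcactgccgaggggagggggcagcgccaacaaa
Col4a2: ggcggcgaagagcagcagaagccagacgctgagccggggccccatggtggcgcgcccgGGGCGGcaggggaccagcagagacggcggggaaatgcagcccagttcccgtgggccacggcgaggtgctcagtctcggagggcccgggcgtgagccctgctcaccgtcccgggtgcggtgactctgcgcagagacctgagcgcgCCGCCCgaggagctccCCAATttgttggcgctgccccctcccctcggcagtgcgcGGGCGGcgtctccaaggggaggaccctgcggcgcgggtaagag

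Such windows were found for 26 of the 36 member genes, 31 windows in all, and searched on both strands; matches of different motifs shared letters in 0 of the 31 and in 133 of all 32851 windows. GGGCGG, the core of the GC box, was in 21 of the 31, against 35.7% of 32851 windows of all genes. CCAAT was in 13 of 31, against 37.4%, and TATAAA in 4 of 31, against 13.6%. These matches describe letters in the window and no site of binding.

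Nid1, the nidogen that links laminin to type IV collagen, read 7.98, 7.60 and 7.99 in K14WT skin, 7.56, 7.36 and 7.31 in buds labelled PTHrP-/-, and 6.75, 7.18 and 6.43 in WT buds. Both other groups lay above the WT buds without overlap. It rose by 1.07 ± 0.24 (SE) in K14WT skin over WT buds (adjusted p = 0.0181), and the bud difference behind its listing was 0.62 ± 0.24 (adjusted p = 0.308). Lama4, a laminin chain of vessels and mesenchyme, read 7.75, 7.76 and 8.55 in skin labelled K14-PTHrP, against 7.63, 7.64 and 7.42 in K14WT skin, with the third array far above the rest, and was not called (0.46 ± 0.22 SE, adjusted p = 0.433; without the third array 0.19, adjusted p = 0.7315). It read 7.42, 7.47 and 6.89 in buds labelled PTHrP-/-, against 7.68, 7.63 and 7.59 in WT buds, lower without overlap. That is the difference behind its listing, although the detection calls in the authors' deposited table are absent on all 6 bud arrays. Lama5 is a laminin alpha chain of epidermal basement membrane. It averaged 5.09 ± 0.27 in K14WT skin, 4.50 ± 0.41 in WT skin and 5.13 ± 0.26 in WT buds (SD, n = 3 each). The authors' deposited table calls Lama5 absent on 2 of the 3 WT skin arrays and on 0 WT bud arrays. Its WT skin difference from WT buds, -0.63 ± 0.19 (SE), did not pass (adjusted p = 0.267) except without the third WT skin array (-0.85, adjusted p = 0.0474; up to 0.7802 with another array left out), and K14WT skin over WT buds gave -0.04 ± 0.19.

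**Figure D3:**
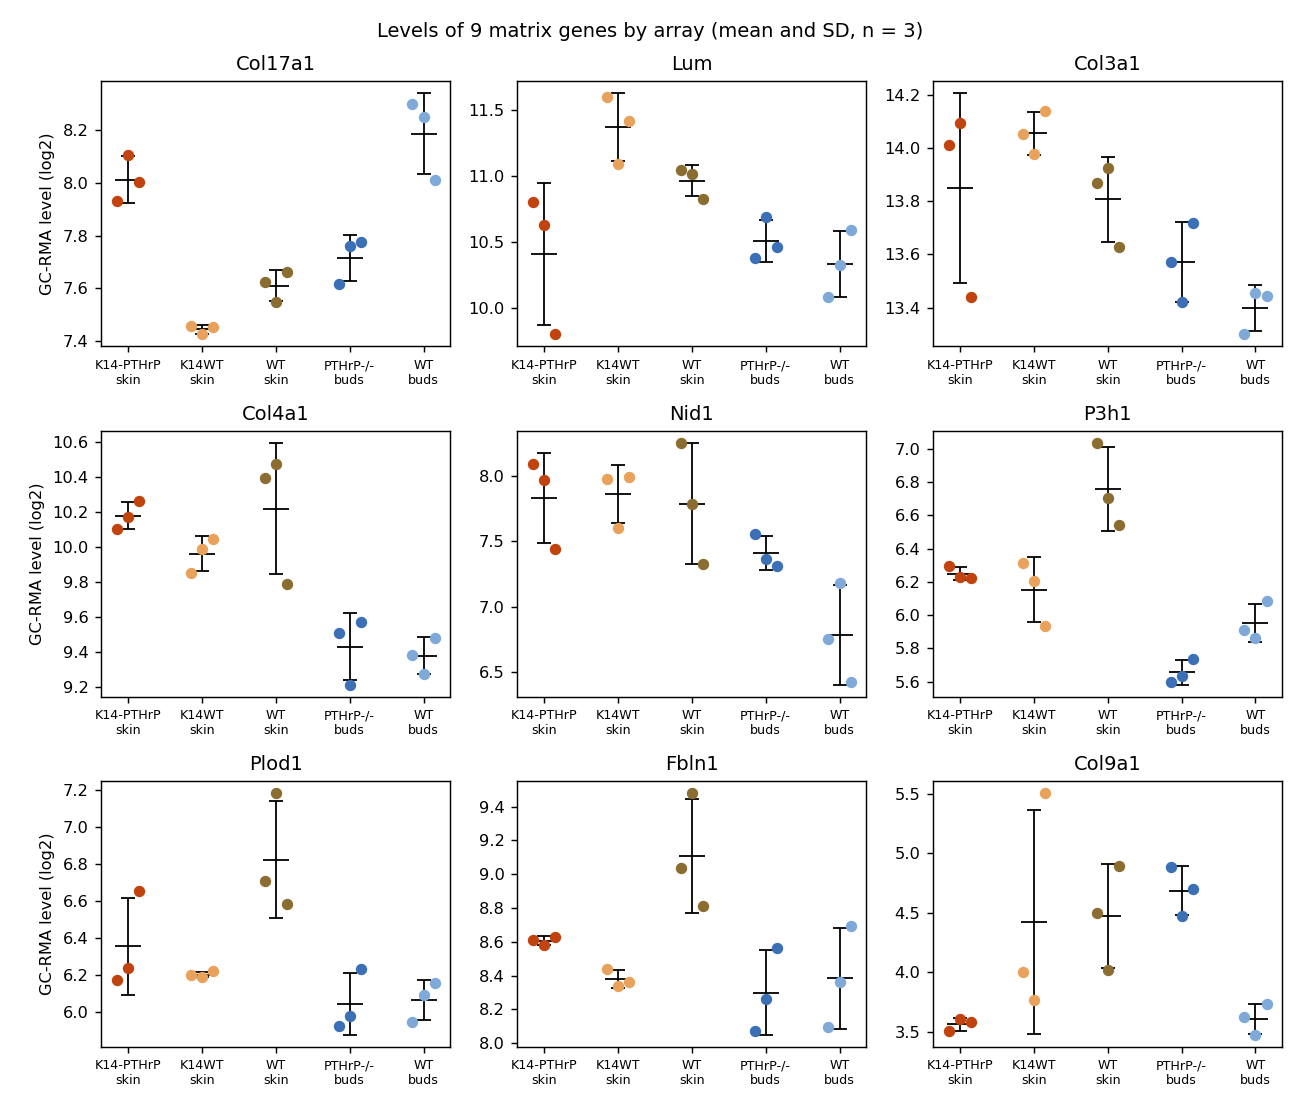
Log2 level (y axes, each with its own range) of 9 matrix genes on every array, by group (x axis), at the brightest probe set of each gene; points are arrays, the bar is the mean and the whiskers the SD, n = 3. Col17a1 is lowest in K14WT skin, the third Lum and Col3a1 points of K14-PTHrP skin lie far below the other points of the group, and P3h1, Plod1 and Fbln1 stand highest in WT skin.

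Of the 6 probe sets of collagen-modifying enzymes, 2 were called lower in K14WT skin than in WT skin. In WT skin over WT buds all 6 probe sets had positive differences, 0.63 to 0.92, which is what put them on the list. In K14WT skin over WT buds the 6 were again positive but with a median of 0.21, and in K14WT skin over WT skin 5 of 6 were negative, with a median of -0.59. Over all probe sets the median of K14WT skin over WT skin was -0.05, and over the 316 tested probe sets of the list it was -0.28.

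P3h1, the prolyl 3-hydroxylase whose loss causes brittle bone in humans, read 6.32, 6.21 and 5.94 in K14WT skin, 7.03, 6.70 and 6.54 in WT skin, and 5.91, 5.86 and 6.08 in WT buds. K14WT skin overlapped the buds and lay wholly below WT skin. P3h1 fell by 0.61 ± 0.13 (SE) in K14WT skin over WT skin (limma adjusted p = 0.0223). Its second, dimmer probe set read 6.11, 5.31 and 6.05 in K14WT skin, 5.88, 5.53 and 5.55 in WT skin, and 5.35, 5.03 and 4.71 in WT buds. That probe set rose in K14WT skin over WT buds (0.79 ± 0.21 SE, adjusted p = 0.0318) and differed by 0.17 ± 0.21 between the WT skin groups, so the gene's direction rests on which probe set is read.

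Plod1, a lysyl hydroxylase, read 6.20, 6.19 and 6.22 in K14WT skin, 6.71, 7.18 and 6.58 in WT skin, and 5.95, 6.09 and 6.16 in WT buds. It fell by 0.62 ± 0.16 (SE) in K14WT skin over WT skin (adjusted p = 0.0425). The authors' deposited table calls Plod1 absent on 2 WT bud arrays and on 0 WT skin arrays. Plod2, the lysyl hydroxylase that modifies collagen telopeptides, read 6.67, 6.11 and 6.32 in K14WT skin, against 7.09, 6.97 and 7.13 in WT skin, without overlap, and missed the threshold (-0.70 ± 0.22 SE, adjusted p = 0.0803). P4ha1, a catalytic subunit of prolyl 4-hydroxylase, read 8.44, 7.97 and 7.94 in K14WT skin, against 8.86, 8.87 and 8.34 in WT skin, and also missed it (-0.58 ± 0.19 SE, adjusted p = 0.0835). P4ha1 was the 1 enzyme on lists of both comparisons, with 7.45, 7.79 and 7.81 in buds labelled PTHrP-/- against 7.75, 8.14 and 8.21 in WT buds. The 3 calls of this pair of WT skin groups were lost when only those 6 arrays were fitted (adjusted p from 0.0639 to 0.083) and after quantile normalization (0.0605 to 0.0789). They were also lost on leaving out the second or the third K14WT array or the first or second WT skin array, and Plod1 without the first K14WT array. With no filter on low values Plod1 and Fbln1 missed the threshold too (adjusted p = 0.0791 and 0.0706).

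P4ha2, the other prolyl 4-hydroxylase subunit, read 7.09, 7.13 and 7.39 in skin labelled K14-PTHrP, against 7.75, 7.94 and 7.67 in K14WT skin. All 3 transgenic arrays lay below all 3 K14WT arrays, a difference of -0.58 ± 0.16 (SE) that did not pass (adjusted p = 0.199). Between K14WT skin and WT skin it differed by -0.28 ± 0.16.

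**Figure D4:**
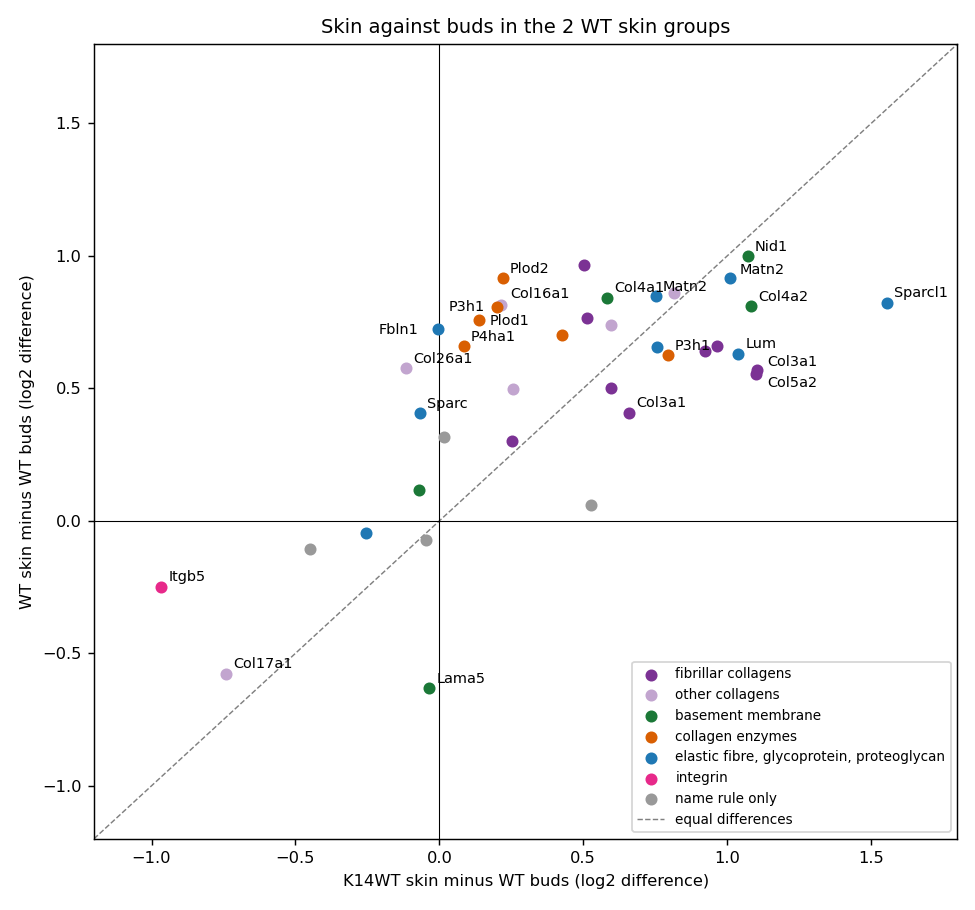
Difference from WT buds in log2 level for the 39 tested matrix probe sets, K14WT skin on the x axis and WT skin on the y axis, coloured by role, with a dashed line where they are equal; both axes share the WT bud arrays. Sparcl1 lies furthest right, and Nid1, Col4a2, Lum, Col5a2, the brighter Matn2 probe set and the less bright Col3a1 probe set lie right of x = 1, while P3h1, Plod1, Plod2, P4ha1 and Fbln1 lie high near x = 0.

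Among the other collagens, Col6a1 and Col16a1 showed both patterns. Col6a1, a chain of the beaded microfilaments around cells, read 10.35, 10.61 and 10.44 in K14WT skin, against 9.98, 9.87 and 9.76 in WT buds, and rose by 0.60 ± 0.17 (SE, adjusted p = 0.0449). Col16a1, a fibril-associated collagen, read 8.03, 7.72 and 7.92 in K14WT skin, 8.81, 8.58 and 8.07 in WT skin, and 7.89, 7.60 and 7.54 in WT buds. Its K14WT arrays overlapped the WT buds and lay below WT skin, with a difference of -0.60 ± 0.16 from WT skin that just missed the threshold (adjusted p = 0.0526). Col6a2 is read by a probe set whose name marks probes shared with other transcripts, and its differences were not called.

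Col9a1, a cartilage collagen chain, was dim, with 7 of the 15 arrays under the array median. It read 4.88, 4.48 and 4.70 in buds labelled PTHrP-/-, against 3.62, 3.48 and 3.73 in WT buds, a difference behind its listing of 1.08 ± 0.35 (SE, adjusted p = 0.251, and 0.0285 to 0.496 over the alternatives). All 3 WT bud arrays and all 3 K14-PTHrP arrays were under the array median, although the authors' deposited table calls it present on all 3 WT bud arrays. Skin labelled K14-PTHrP read 3.51, 3.61 and 3.58, against 4.003, 3.771 and 5.505 in K14WT skin. The transgenic arrays lay below without overlap, the third K14WT array stood far above the other K14WT arrays, and the difference of -0.86 ± 0.35 was not called (adjusted p = 0.368). Col26a1 read 5.80, 5.73 and 6.82 in K14-PTHrP skin, against 5.93, 5.22 and 5.24 in K14WT skin, and the third transgenic array stood alone above the others (0.65 ± 0.26 SE, adjusted p = 0.372; without that array 0.30, adjusted p = 0.6203).

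Sparcl1, a matricellular relative of Sparc, had the widest difference of any member between K14WT skin and WT buds. It read 8.72, 8.96 and 7.64 in skin labelled K14-PTHrP, 8.49, 8.16 and 8.64 in K14WT skin, and 8.07, 8.15 and 6.88 in WT skin. It read 7.11, 6.72 and 6.90 in buds labelled PTHrP-/-, and 6.84, 7.08 and 6.71 in WT buds. Apart from the third WT skin array, every skin array lay above every bud array. Sparcl1 rose by 1.55 ± 0.35 (SE) in K14WT skin over WT buds (adjusted p = 0.0165) and by 1.52 ± 0.35 over buds labelled PTHrP-/- (adjusted p = 0.0467).

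Lum encodes lumican, the small proteoglycan that spaces collagen fibrils. It read 10.80, 10.62 and 9.80 in skin labelled K14-PTHrP, 11.60, 11.09 and 11.41 in K14WT skin, 11.04, 11.02 and 10.83 in WT skin, and 10.08, 10.32 and 10.59 in WT buds. It rose by 1.04 ± 0.23 (SE) in K14WT skin over WT buds (adjusted p = 0.0148). In skin labelled K14-PTHrP all 3 arrays lay below all K14WT arrays, a difference of -0.96 ± 0.23 that missed the threshold (adjusted p = 0.0872). The third transgenic array was the lowest, and without it the difference was -0.66 (adjusted p = 0.155). Over the alternatives the adjusted p ran from 0.014 with array weights to 0.809 when these 6 arrays were fitted alone. With 10.38, 10.69 and 10.46 in buds labelled PTHrP-/-, the bud groups overlapped.

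Matn2, a matrilin that bridges matrix filaments, read 9.70, 9.05 and 9.83 in K14WT skin, 9.28, 9.02 and 9.40 in buds labelled PTHrP-/-, and 8.35, 8.48 and 8.73 in WT buds. Neither K14WT skin nor the PTHrP-/- buds overlapped the WT buds. The difference was 1.01 ± 0.22 (SE) in K14WT skin over WT buds (adjusted p = 0.0143) and 0.71 ± 0.22 in the bud comparison (adjusted p = 0.247). The bud comparison is among those behind the listing of this probe set. A dimmer Matn2 probe set rose by 0.75 ± 0.21 in K14WT skin over WT buds (adjusted p = 0.0365) and differed by 0.14 ± 0.21 between the bud groups.

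The fibulins bind elastic fibres and basement membranes, and 1 of the 3 was called in any comparison. Fbln1 read 8.61, 8.58 and 8.63 in K14-PTHrP skin, 8.44, 8.34 and 8.36 in K14WT skin, 9.04, 9.48 and 8.81 in WT skin, and 8.09, 8.36 and 8.69 in WT buds. It fell by 0.73 ± 0.18 (SE) in K14WT skin over WT skin (adjusted p = 0.035). Fbln2 read 7.53, 7.61 and 7.52 in skin labelled K14-PTHrP, against 6.48, 6.95 and 7.05 in K14WT skin, and 6.41, 6.55 and 6.48 in buds labelled PTHrP-/-, against 6.91, 6.98 and 7.36 in WT buds. The transgenic arrays lay wholly above their controls and the PTHrP-/- arrays wholly below theirs, with differences of 0.73 ± 0.24 (adjusted p = 0.281) and -0.60 ± 0.24 (adjusted p = 0.319) that did not pass. The bud difference is the one behind the listing of Fbln2, so its direction was set by that choice. Fbln5 was positive in both skin groups over WT buds (0.76 ± 0.24 in K14WT skin, adjusted p = 0.0557). Sparc, a collagen-binding glycoprotein, read 12.49, 12.48 and 12.21 in K14WT skin, against 12.89, 13.03 and 12.69 in WT skin, without overlap, and missed the threshold (-0.47 ± 0.13, adjusted p = 0.0526).

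The 1 integrin, Itgb5, is the beta subunit of a vitronectin receptor. It read 7.14, 7.68 and 7.22 in K14WT skin, 7.94, 8.41 and 7.84 in WT skin, 7.84, 7.96 and 7.74 in buds labelled PTHrP-/-, and 8.39, 8.31 and 8.23 in WT buds. It fell by 0.97 ± 0.22 (SE) in K14WT skin over WT buds (adjusted p = 0.0168), and every K14WT array lay below every WT skin and bud array. Of the probe sets caught by name alone, Eif6, a ribosome biogenesis factor, fell by 0.45 ± 0.12 in the same comparison (adjusted p = 0.0328), with 9.28, 9.54 and 9.33 in K14WT skin against 9.92, 9.77 and 9.80 in WT buds. Itgb1bp1, Itgb1bp2 and Itgb3bp, a cytoplasmic integrin partner, a muscle chaperone and a kinetochore protein, were called in none of the 6 comparisons, with the lowest adjusted p, 0.1205 for Itgb1bp2, in K14WT skin over buds labelled PTHrP-/-.

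Itgb3bp read 5.76, 5.35 and 5.37 in buds labelled PTHrP-/-, against 4.96, 5.15 and 5.18 in WT buds, and Itgb1bp2 read 5.45, 5.55 and 5.42, against 6.18, 5.83 and 5.86, both without overlap. These bud differences are the ones behind their listing. The authors' deposited table calls Itgb1bp2 absent on all 6 bud arrays. For Itgb1bp2 the skeletal muscle markers given below ran the same way, at 8205 to 9831 in buds labelled PTHrP-/- and 11806 to 12771 in WT buds, and their part was not tested.

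Other matrix genes were read from 6 lists of collagen processing, elastic fibres, proteoglycans, matricellular proteins, receptors and TGF-beta signalling, of which 33 genes outside the members were tested, all of them named because they are on the authors' lists. Those lists were drawn up against the same WT bud arrays, so calls against WT buds are not independent of them. Between K14WT skin and WT buds 27.9% of the 2185 tested probe sets on the authors' lists were called, 98 higher and 512 lower. On the list of higher in WT skin 74 of 316 were called higher and 6 lower. Of the 33 genes, 8 were called higher and 1 lower. Among them Serpinh1, the collagen chaperone, differed by 0.51 ± 0.14 (SE, adjusted p = 0.0392), Eln, elastin, by 0.75 ± 0.17 (adjusted p = 0.0164) and Aspn, asporin, by 1.40 ± 0.17 (adjusted p = 0.00198). Serpinh1 was 1 of 7 tested genes of collagen processing, and Eln 1 of 3 of elastic fibres. Of 9 matricellular genes 4 were called there, with Egfl6 at 1.69 ± 0.26 (adjusted p = 0.00458) and Ccn4 at 1.201 ± 0.26 (adjusted p = 0.0149). The 1 lower gene was Actn4, an actinin of focal adhesions (-0.62 ± 0.10, adjusted p = 0.00517), which was also lower in K14WT skin than in WT skin.

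In skin labelled K14-PTHrP over K14WT skin, Vcan, the large proteoglycan versican, rose by 1.43 ± 0.22 (SE, adjusted p = 0.0071), with means of 8.63 ± 0.44 in K14-PTHrP skin and 7.21 ± 0.15 in K14WT skin (SD, n = 3 each). Ccn2, a matricellular protein known as a TGF-beta target, fell by 1.70 ± 0.14 (adjusted p = 4.123e-05), with means of 4.23 ± 0.35 in K14-PTHrP skin and 5.94 ± 0.02 in K14WT skin. Of the genes read from these lists, Ccn2 alone was called in buds labelled PTHrP-/- over WT buds, where it was higher (1.05 ± 0.14, adjusted p = 0.0201). That comparison is one behind the authors' lists, and 3 of the 2185 tested probe sets on them were called there. Egfl6 was lower in K14-PTHrP skin (-1.29 ± 0.26, adjusted p = 0.0393), and Smoc2 lower in K14WT skin than in WT skin (-0.85 ± 0.15, adjusted p = 0.0111). No gene of the TGF-beta signalling list was on the authors' lists, which give the names used here, so it was not read.

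Cell type markers differed between the groups as well. The summed signal of the 5 named dermal fibroblast markers was 3791 to 4066 in K14-PTHrP skin, 4529 to 5842 in K14WT skin, 5650 to 5835 in WT skin, 3457 to 3743 in buds labelled PTHrP-/- and 2847 to 3796 in WT buds. Lum, itself a member, and Crabp1 are the brightest of them. Of the markers other than Lum, in K14-PTHrP skin over K14WT skin, Thy1 was higher (0.98, adjusted p = 0.0444), and Pdgfrb (0.22), Prrx1 (0.02) and Crabp1 (-0.25) were not called. In K14WT skin over WT buds, where Lum was called, Pdgfrb (0.57), Prrx1 (0.30), Crabp1 (0.31) and Thy1 (0.03) were not. In K14WT skin over WT skin, Crabp1 was called lower (-0.78, adjusted p = 0.0448). Pdgfrb (-0.48), Prrx1 (-0.41), Thy1 (0.06) and Lum (0.41) were not called there. The 11 named skeletal muscle markers summed to 15818 to 21226 in K14WT skin, 8705 to 13898 in WT skin and 11806 to 12771 in WT buds. The 4 simple epithelial keratins summed to 1552 to 2501 in K14WT skin, 1951 to 2881 in WT skin and 3603 to 3926 in WT buds. The 18S probe set separated the WT skin groups without overlap, at 9.27 to 10.91 in K14WT skin and 6.90 to 7.63 in WT skin. Each named marker of these 3 cell types lay above the array median on all 15 arrays, and the part of cell makeup and RNA quality in the member results was not tested.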

How the data were processed

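RNA was hybridised to Affymetrix MOE430A arrays. The authors deposited 1 table of GC-RMA log2 values (background by probe sequence, quantile normalization), per the file headers; GCRMA, MAS5 and affy are named, with no version, in the submitters' processing notes. Their deposited lists give mean signal intensity per group, rounded, and a signed fold change treated here as a score, chosen with Cyber-T per the file headers. All 46 list entries of the members matched the table within 0.51 signal units.

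From the log2 values, limma 3.58.1 (R 4.3.3) fitted 5 group means over 15 arrays (lmFit, eBayes), two-sided, with Benjamini-Hochberg adjustment over 11565 probe sets at a threshold of 0.05. Probe sets had to exceed their array's median on at least 3 arrays; 64 controls and the 134 probe sets described above were left out. The script was tested on simulated data. The members and gene lists were chosen with earlier results of these data known. Named members were those called in any comparison, plus up to 8 per direction by size in the transgenic comparison and up to 6 in each comparison behind the lists; list genes were named when called, at most 4 per list. K14WT skin over buds labelled PTHrP-/- was added after seeing the data. The labels do not say that replicate numbers pair samples; same-numbered arrays deviated together in every pair in that added comparison alone (r = 0.278, 0.297 and 0.143), where the block left 2 members called. Promoter sequences are from RefSeq, build GRCm38.p6. Of 2416 listed probe sets 2323 matched a current gene symbol. Alternatives were the 2 groups alone, other filters and scalings, an intensity trend, array weights, the replicate block, the set-aside probe sets and each array left out.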

Additional observations from a re-analysis of the deposited data

Results flagged for a closer look

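P3h1, Plod1 and Fbln1 drew attention because 2 groups that are both WT skin differed from WT buds by unequal amounts. The direct contrast of K14WT skin over WT skin, which equals the difference of the 2 skin-minus-bud differences, was -0.607 for P3h1 (limma adjusted p = 0.0223), -0.6211 for Plod1 (0.0425) and -0.7287 for Fbln1 (0.035), with all 3 K14WT arrays below all 3 WT skin arrays each time. Over each result's alternatives the adjusted p ranged from 0.00016 to 0.0894 for P3h1, from 0.0027 to 0.1449 for Plod1 and from 0.00277 to 0.1326 for Fbln1. The cause was not tested.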

How the results depend on the processing

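Counts of all probe sets called, and of members called, depended on the settings. In buds labelled PTHrP-/- over WT buds (3 and 0) the 2 groups alone gave 91 and 1, array weights 186 and 1, and no filter 5 calls. In WT skin over WT buds (18 and 2) array weights gave 359 and 17, no filter 31 calls, the set-aside probe sets 208 and 5, and the 2 groups alone and the replicate block 1 member each. In K14-PTHrP over K14WT skin (84 and 1) the 2 groups alone gave 7 and 0, array weights 1309 and 4, and quantile normalization 0 members. In K14WT skin over WT buds (1323 and 17) array weights gave 4615 calls, no filter 875 and 10, median centring 12 members and the replicate block 14. For K14WT skin over WT skin (604 and 3) members numbered 0 with the 2 groups alone or quantile normalization, 19 with array weights (3880 calls), 6 with median centring, 1 with no filter (306 calls), and 5 with the stricter filter or the set-aside probe sets. For K14WT skin over buds labelled PTHrP-/- (185 and 2) the 2 groups alone gave 347 and 6, array weights 3087 and 25, median centring 99 and 1, and no filter 74 and 0.

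Leaving out each array in turn gave 1 to 6 calls and 0 to 0 members in that order of comparisons, then 2 to 69 and 0 to 10, 49 to 212 and 1 to 2, 379 to 1502 and 1 to 13, 95 to 1038 and 0 to 6, and 24 to 422 and 0 to 1. With 1 array left out, Fbln2 in WT skin over WT buds ranged from -0.3626 to 0.2614 (0.0934 without the third WT bud array), Eif6 there from -0.1967 to 0.005632, and Col5a3 in K14-PTHrP over K14WT skin from -0.1159 to 0.4237; array weights gave -0.1355 for Col5a3. Of the member calls in K14WT skin over WT buds not covered above, Col6a1 was lost with median centring (adjusted p = 0.0663) and no filter (0.0793), the dimmer Matn2 probe set with those (0.058 and 0.0713), the block (0.0508) and the 2 groups alone (0.0531), the dimmer P3h1 probe set with no filter (0.0631) and the 2 groups alone (0.0924), Col5a2 with no filter (0.0593) and Eif6 with quantile normalization (0.0993). Over buds labelled PTHrP-/-, Col4a2 was lost with no filter (0.0827) and Sparcl1 with no filter (0.116) and median centring (0.0675). Median centring moved the median of all probe sets to -0.128 in K14WT skin over WT buds. The cause of these changes was not tested.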
